A study of Xiphophorus maculatus with 32 samples.

Results

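Skin of *Xiphophorus maculatus* exposed to ultraviolet light was compared directly with skin exposed to blue light, without any control library in the comparison. The members were the 8 RNA-Seq libraries of 4 wavebands out of 32 libraries listed for the whole series: 4 UV libraries (300–350 nm and 350–400 nm) and 4 blue libraries (400–450 nm and 450–500 nm), chosen from the waveband in the labels alone. Each library came from the skin of 1 fish, so each waveband had 2 fish. All were mature males of the inbred Jp 163 B line, 10 to 11 months old. They were kept in the dark for 14 h, exposed to light from a xenon source passed through a monochromator, and returned to the dark for 6 h before dissection. The dose was 7.3 kJ/m2 at 300–350 nm, 18.6 kJ/m2 at 350–400 nm, 21.6 kJ/m2 at 400–450 nm and 21.2 kJ/m2 at 450–500 nm. The lowest of these doses belonged to 1 UV waveband only, so for 300–350 nm the effect of the wavelength and the effect of the dose cannot be told apart. The 350–400 nm fish were exposed to nearly the same dose as the blue fish, and for that reason each UV waveband was also compared with blue light on its own. The 2 controls of the 50 nm experiment were fish without light exposure. The paper describes its controls both as fish from the dark cycle that were not handled and as unexposed fish treated like the rest. These 2 controls took no part in the comparison of UV with blue. Their levels are given beside those of the exposed fish, and UV and blue were also each tested against them.

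The shorter of these wavelengths are absorbed by DNA itself and leave photoproducts that block replication and transcription, whereas longer ultraviolet and blue light act in skin mainly through other absorbing molecules, among them flavins, porphyrins and the light-sensing opsins. Fish skin meets both kinds of light in daylight. It keeps light-driven DNA repair enzymes, and its cells carry a circadian clock that light can reset directly, with cryptochromes and period proteins as its repressors. Cells with damaged DNA halt their division through checkpoint kinases and the inhibitor p21, while oxidants induce stress enzymes such as heme oxygenase.

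The 8 libraries held between 15304303 and 19825171 counts. Reads were counted per Ensembl transcript, and transcripts could be named only where the study's gene panel (63 transcripts) or the counts themselves (25 coding-sequence rows) gave a name. Of these 88, 77 had enough reads to be tested. The panel named 1 muscle transcript, *MYL2B*, a myosin light chain, at 44.6 to 113 CPM (counts scaled to library size, as the CPM of edgeR with its TMM factors) in the 8 fish, and its UV and blue fish overlapped. The epidermal transcription factor *FOXN1* was found in every fish, at 4.70 to 8.90 CPM. Markers of blood and pigment cells had no named transcript, so the makeup of the samples was not tested further. In whole skin, fewer cells of a type and less RNA per cell cannot be told apart.

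No transcript differed between UV and blue skin by the thresholds used in the study, an adjusted p-value under 0.05 and at least a 2-fold difference. Of 15991 transcripts tested with edgeR's quasi-likelihood test, 0 were higher and 0 were lower in UV (0% called), and the lowest adjusted p-value was 0.790. Without adjustment, 986 transcripts (6.17%) had a p-value under 0.05, of which 399 were higher (2.5%) and 587 lower (3.67%) in UV. This number ran from 628, without the first fish of 450–500 nm, to 1297, without the first fish of 400–450 nm. On the same 8 libraries limma voom called 0, edgeR's exact test 2 and DESeq2 5. A p-value that misses the threshold does not show that the 2 kinds of light acted alike, so the size of difference that these fish allow was read from the intervals. The 95% confidence interval of the UV minus blue difference lay within 2-fold in either direction for 13931 transcripts (87.1%) and within 1.5-fold for 9583 (59.9%). The median size of the difference was 0.12 on the log2 scale, against a median standard error of 0.16. A total of 105 transcripts (0.657%) had a fitted difference of at least 2-fold. These intervals bound an average over the 2 wavebands of each kind of light, in which opposite differences can cancel. With fewer fish, the share of intervals within 2-fold was 77.9% for 350–400 nm against blue and 76.4% for 300–350 nm against blue.

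Fewer transcripts differed 2-fold between the means of UV and blue than between the 2 fish of any 1 waveband. At 559 transcripts (3.50%) the 2 fish of 300–350 nm differed at least 2-fold, and the pairs of 350–400 nm, 400–450 nm and 450–500 nm did so at 703, 817 and 916 transcripts, respectively. The mean of the UV fish and the mean of the blue fish differed that much at 83 transcripts (0.519%), although a mean of 4 fish varies less than a single fish. All 4 UV fish were above all 4 blue fish at 289 transcripts (1.81%) and below them at 288 (1.8%). In the first 2 principal components of the 500 most variable transcripts, which held 33.7% and 22.8% of the variance, UV and blue fish were not separated. The second fish of 450–500 nm stood apart from the rest. It was at least 2-fold above every other fish at 120 transcripts, while for the other 7 fish this number was between 0 and 26. In the other direction this fish did not stand apart. It was at least 2-fold below every other fish at 20 transcripts, against 0 to 33 for the other 7 fish. Without it, 0 transcripts were called between UV and blue, and 1222 had an unadjusted p-value under 0.05.

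**Figure D1:**
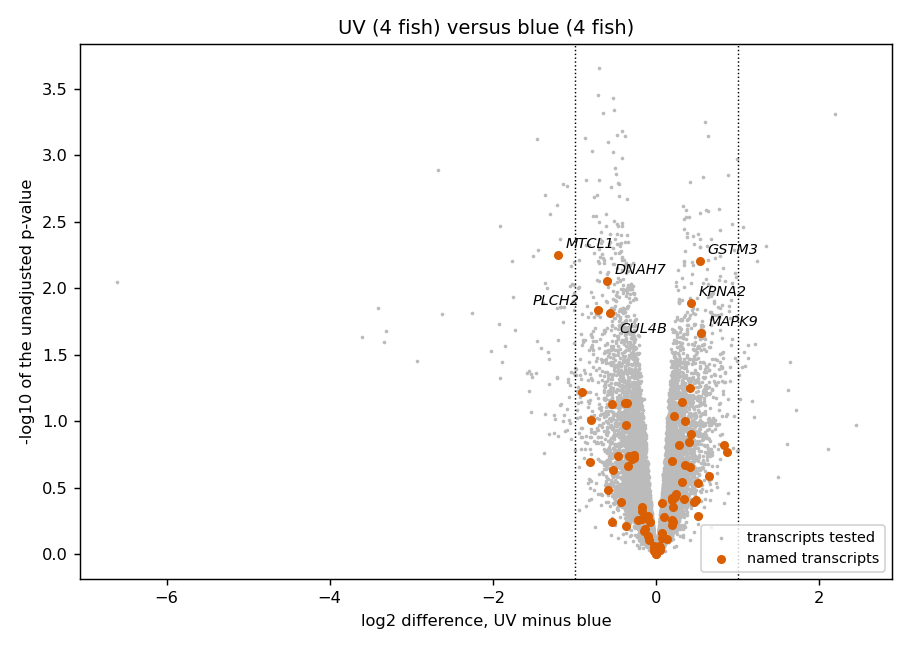
Log2 difference of UV minus blue (horizontal axis) against −log10 of the unadjusted p-value (vertical axis) for the 15991 transcripts tested, 4 fish against 4. Grey points are all transcripts, orange points are the 77 named ones, and dotted lines mark a 2-fold difference; none of the points passed the adjusted threshold.

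Of the 77 named transcripts 40 had a higher and 37 a lower value in UV, with a median log2 difference of 0.01 against −0.01 over all transcripts, and none was called. A total of 7 (9.09%) had an unadjusted p-value under 0.05, against 6.17% of all transcripts, and in 5 (6.49%) the UV and blue fish did not overlap, against 3.61% of all. These 7 are described fish by fish, since they are the named transcripts in which UV and blue stood furthest apart for their spread. All 7 had adjusted p-values of 0.790 or 0.800 in edgeR's quasi-likelihood test.

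*MTCL1* (ENSXMAT00000000868) encodes a protein that crosslinks microtubules. Its level was 0.363 and 0.508 CPM in the 2 fish of 300–350 nm, 0.792 and 0.692 CPM at 350–400 nm, 1.07 and 1.17 CPM at 400–450 nm and 2.05 and 1.14 CPM at 450–500 nm. Every UV fish was below every blue fish, and the order of the 4 waveband means followed the wavelength. The log2 difference was −1.20 (SE 0.34, 95% interval −1.96 to −0.44), a mean of 0.589 ± 0.191 CPM in UV against 1.36 ± 0.465 CPM in blue (SD, n = 4). The transcript was rare, with 133 counts over the 8 libraries together, and the controls, at 0.307 and 1.26 CPM, spanned most of the range of both groups.

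*GSTM3*, a glutathione S-transferase that conjugates reactive compounds to glutathione, was measured by a coding-sequence row. It stood at 42.3 and 43.2 CPM at 300–350 nm, 40.2 and 34.3 CPM at 350–400 nm, 31.8 and 29.9 CPM at 400–450 nm and 19.3 and 28.4 CPM at 450–500 nm. Here every UV fish was above every blue fish. The difference was 0.54 on the log2 scale (SE 0.16, 95% interval 0.19 to 0.89), with 40.0 ± 3.97 CPM in UV and 27.3 ± 5.52 CPM in blue (SD, n = 4). The 2 controls, at 32.8 and 20.5 CPM, were below every UV fish and lay among the blue fish or just above them.

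*DNAH7* (ENSXMAT00000007381) encodes a dynein heavy chain of motile cilia. UV fish had 7.56 and 5.90 CPM at 300–350 nm and 8.32 and 5.05 CPM at 350–400 nm, and blue fish had 9.02 and 9.08 CPM at 400–450 nm and 12.3 and 10.1 CPM at 450–500 nm. The groups did not overlap, and all 8 exposed fish were above both controls, at 2.24 and 3.07 CPM. UV minus blue was −0.60 on the log2 scale (SE 0.18, 95% interval −1.02 to −0.19). Against the controls the log2 difference was 1.34 in UV and 1.92 in blue, with adjusted p-values of 0.0169 and 0.00486 in edgeR's quasi-likelihood test.

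*KPNA2* (ENSXMAT00000008371), an importin that carries proteins into the nucleus and is abundant in dividing cells, was the only one of the 7 whose control level was far above all exposed fish. The controls had 151 and 231 CPM. The UV fish had 61.1 and 53.1 CPM at 300–350 nm and 66.9 and 46.9 CPM at 350–400 nm, and the blue fish 41.9 and 33.6 CPM at 400–450 nm and 46.9 and 45.3 CPM at 450–500 nm. The lowest UV fish and the highest blue fish met at 46.9 CPM, so the groups overlapped at 1 point of their ranges. UV was 0.43 higher than blue on the log2 scale (SE 0.14, 95% interval 0.11 to 0.75), while against the controls it fell by 1.74 on the log2 scale in UV and fell by 2.19 in blue (adjusted p-values of 0.0280 and 0.0102 in edgeR's quasi-likelihood test).

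*PLCH2* (ENSXMAT00000001996) encodes a phospholipase C, an enzyme that releases the second messengers inositol trisphosphate and diacylglycerol. All 4 UV fish lay between 10.9 and 11.4 CPM, while the blue fish were spread widely, with 21.9 and 11.8 CPM at 400–450 nm and 25.9 and 13.2 CPM at 450–500 nm. The groups did not overlap, but the gap between them was narrow and rested on the fish numbered 2 in both blue wavebands. The log2 difference was −0.71 (SE 0.24, 95% interval −1.25 to −0.18). Of the controls, 1 lay between the groups at 11.7 CPM and the other within blue at 16.5 CPM.

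*CUL4B*, the scaffold of a ubiquitin ligase that takes part in the repair of ultraviolet damage, and *MAPK9*, the stress-activated kinase JNK2, were both read from coding-sequence rows. *CUL4B* stood at 1.87 and 2.16 CPM at 300–350 nm, 2.72 and 2.91 CPM at 350–400 nm, 3.44 and 3.50 CPM at 400–450 nm and 3.19 and 4.04 CPM at 450–500 nm. Its UV fish were all below its blue fish, by −0.56 on the log2 scale (SE 0.19, 95% interval −0.995 to −0.135). *MAPK9* stood at 7.68 and 7.36 CPM at 300–350 nm, 4.92 and 7.96 CPM at 350–400 nm, 4.75 and 5.89 CPM at 400–450 nm and 3.59 and 4.67 CPM at 450–500 nm. The first fish of 350–400 nm fell among the blue fish, and the difference was 0.55 (SE 0.20), with an interval from 0.10 that just passed 2-fold at its upper end. The controls of *CUL4B* (2.54 and 1.68 CPM) were below all blue fish, and those of *MAPK9* (6.01 and 3.49 CPM) lay just outside either end of the blue range.

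**Figure D2:**
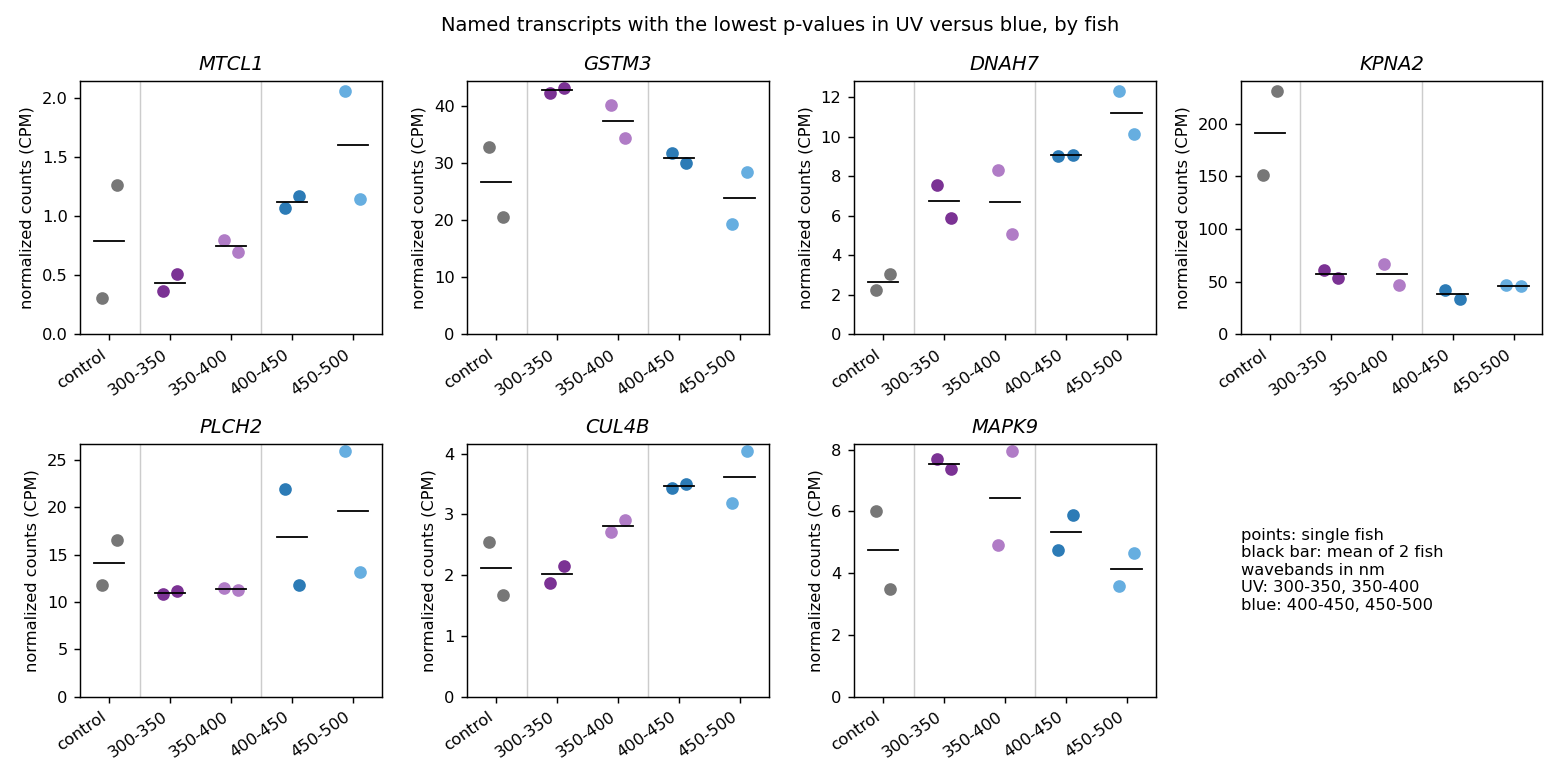
Normalized counts (CPM, vertical axes from 0) of the 7 named transcripts with an unadjusted p under 0.05, for the 2 controls and the 2 fish of each waveband in nm. Points are single fish and bars the mean of 2; UV and blue fish do not overlap for *MTCL1*, *GSTM3*, *DNAH7*, *PLCH2* and *CUL4B*, and *KPNA2* has controls of 151 and 231 CPM above every exposed fish.

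The comparison at nearly the same dose gave values of the same sign for these 7. In 350–400 nm against blue the log2 difference was −0.86 for *MTCL1*, 0.45 for *GSTM3*, −0.59 for *DNAH7*, 0.44 for *KPNA2*, −0.68 for *PLCH2*, −0.33 for *CUL4B* and 0.45 for *MAPK9*. In 300–350 nm against blue it was −1.63, 0.64, −0.59, 0.44, −0.73, −0.81 and 0.67 in the same order. The 7 were picked from a test that already held these UV and blue fish, so equal signs were close to fixed in advance. Both comparisons also use the same 4 blue fish, so the signs are not independent.

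The remaining named transcripts are given by role. The clock list (4 of 4 tested) showed little difference: *CRY2A*, a cryptochrome, stood at 46.6 to 66.5 CPM in UV and 39.5 to 52.0 CPM in blue, with a log2 difference of 0.19 (95% interval −0.12 to 0.51). The 2 groups overlapped, and both were above the controls, with a mean of 17.2 CPM (log2 1.59 in UV and 1.39 in blue, adjusted p-values of 0.00231 and 0.00210 in edgeR's quasi-likelihood test). *BHLHE40*, a repressor of clock genes, was at 0.19, the nuclear receptor *RORA* at 0.04 and its antagonist *NR1D4* at −0.14. All 4 intervals lay within 2-fold. A coding-sequence row named *CRY2*, kept outside this list, was at 0.51 and ran from −0.17 to 2.17 over the alternative analyses.

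Of the DNA damage list, 4 of 8 were higher and 4 lower in UV, with a median log2 difference of −0.05. *CDKN1A*, which encodes the cell cycle inhibitor p21, stood at 15.0 and 9.01 CPM at 300–350 nm, 3.51 and 2.42 CPM at 350–400 nm, 3.80 and 3.07 CPM at 400–450 nm and 6.04 and 8.45 CPM at 450–500 nm. The fish of 300–350 nm were the highest and those of 350–400 nm among the lowest, so the 2 UV wavebands stood on opposite sides of the blue mean and the UV minus blue value was 0.47 with a wide interval (−0.73 to 1.67). The controls had 6.05 and 11.9 CPM. *GADD45B* and *GAD45A*, members of the growth arrest and DNA damage family, were at 0.35 and −0.34, and *CHK1*, a checkpoint kinase, at 0.08 (95% interval −0.45 to 0.60). The value of *GADD45B* ran from −0.24 to 0.77 over the alternative analyses. *PRKDC*, the catalytic subunit of a kinase of double-strand break repair, was at −0.18, the nuclease *APEX2* at 0.24 and the helicase *PIF1* at −0.23. *DMC2* was at −0.43. Against the controls *DMC2* was called lower by edgeR in UV (−1.65) and not in blue, which does not show that UV and blue differ.

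The cell cycle list had all its members on 1 side, with 7 of 7 higher in UV and a median of 0.36, against 48.3% higher and a median of −0.01 over all transcripts. None was called, 1 (*KPNA2*) had an unadjusted p-value under 0.05, and the 7 were measured in the same fish, so they are not 7 separate observations. *NUMA1*, which organizes the spindle poles, was at 0.36 (SE 0.20), with 9.07 to 16.8 CPM in UV and 7.85 to 11.6 CPM in blue. *CCNF*, a cyclin, was at 0.28 and *ECT2*, which drives cytokinesis, at 0.32. *SPC25*, a kinetochore subunit, was at 0.87 with an SE of 0.59, and ranged from 0.889 to 3.93 CPM in UV and from 0.237 to 1.65 CPM in blue. *G2E3* was at 0.42 and *CDC47*, a subunit of the replicative helicase, at 0.05. For all of these the UV and blue fish overlapped. Against the controls all 7 had lower values in both kinds of light. The log2 difference in UV and in blue was −1.28 and −1.65 for *NUMA1*, −0.86 and −1.16 for *CCNF* and −1.48 and −1.79 for *ECT2*. It was −0.17 and −1.04 for *SPC25*, −0.73 and −1.12 for *G2E3* and −1.07 and −1.02 for *CDC47*. All but *CDC47* were less far below the controls in UV than in blue. Both differences use the same 2 controls in 1 fit, so this only repeats the sign of UV minus blue there. It is not a separate observation. By edgeR *KPNA2* was called lower in UV, and *KPNA2*, *NUMA1* and *ECT2* in blue. Over the alternative analyses 6 or 7 of the list were higher in UV, and the median ran from 0.13 to 0.55. It was 0.18, with 6 of 7 higher, without the first fish of 300–350 nm, and 0.13 without both fish of that waveband.

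The stress list had 3 tested members, all with lower values in UV and overlapping groups. *HMOX1*, the heme oxygenase induced by oxidants, was at 15.4 and 11.4 CPM at 300–350 nm, 88.1 and 9.42 CPM at 350–400 nm, 14.4 and 47.1 CPM at 400–450 nm and 44.0 and 55.9 CPM at 450–500 nm. The 2 fish of 350–400 nm thus held the highest and the lowest value. The log2 difference of *HMOX1* was −0.38, and it ran from −1.74 to 0.27 over the alternative analyses. The chaperone genes *HSP90AA1* and *HSPA4* were at −0.46 and −0.30. Over the alternative analyses 0 or 1 of the 3 was higher in UV. The median ran from −0.61 to −0.03, the latter without the 300–350 nm waveband. Of the tested coding-sequence rows, outside this list, 11 were higher and 6 lower in UV. Among the higher were *GSTM3* (0.54), *GPX6* (0.43), *HSP90AB1* (0.20) and *OXR1* (0.19). Among the 6 lower were *MAPK14_2of2* (−0.27) and *CYP1A1*, which is given further below. Against the controls *GPX6* was called lower by edgeR in both kinds of light, at −1.17 in UV and −1.61 in blue. In the list of Gq, calcium and protein kinase C signalling 5 of 7 had lower values in UV, with a median of −0.27. Beside *PLCH2* these were *ITPR3*, the calcium channel opened by inositol trisphosphate, at −0.39 (SE 0.19), the protein kinases C *PRKCA* at −0.36 and *PRKCB* at −0.18, and the phospholipase *PLCB1* at −0.27. The G protein subunit *GNA15* (0.36) and the kinase *CAMK1G* (0.64, SE 0.54) had higher values. In both, the 2 UV wavebands lay on opposite sides of blue. Against blue *GNA15* was at −0.13 for 300–350 nm and 0.73 for 350–400 nm, and *CAMK1G* at −0.41 and 1.26. *GNA15* was above the controls in both kinds of light, by 1.70 in UV and 1.40 in blue. Over the alternative analyses 0 to 3 of the 7 in this list had higher values in UV, and the median ran from −0.38 to −0.18. The lowest number, 0, was found without the 350–400 nm waveband. Over all transcripts 48.3% were higher. A protein kinase C row outside the list, *PRKCE_1of2*, was at 0.48 for UV minus blue. Against the controls this row was called lower by edgeR in both, at −1.57 in UV and −1.94 in blue.

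In the insulin, MAPK and metabolism list 2 of 6 were higher in UV, and 1 of 6 intervals lay within 2-fold. The widest belonged to *IRS2*, an adaptor of the insulin receptor, at −0.81 (95% interval −2.13 to 0.51), with 20.0 to 50.1 CPM in UV and 15.4 to 99.1 CPM in blue. The row named PPAR was at −0.55, *PKFB1* at −0.53, *LPIN1*, a phosphatidate phosphatase, at 0.21, *MAP2K1*, a kinase of the ERK cascade, at 0.14 and *YWHAQ*, an adaptor of the 14-3-3 family, at −0.03. The value of *MAP2K1* ran from −1.02 to 0.78 over the alternative analyses and had the other sign in 7 of 20. In the matrix and epidermis list *TGM8*, a transglutaminase, stood at 78.1 to 221 CPM in UV and 42.0 to 147 CPM in blue (0.51, SE 0.46). Its 2 UV wavebands lay on opposite sides of blue, at −0.30 for 300–350 nm and 1.03 for 350–400 nm. In the same list *FOXN1* (−0.34), the ligand *WNT5A* (−0.17) and the collagen-processing protease *ADAMTS2* (−0.15) were lower in value in UV.

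Among genes of nerve, muscle, cilium and vesicles 2 of 6 were higher in UV. *RAB3B*, a vesicle GTPase, was at −0.79, the cell adhesion gene *DSCAML1* at −0.37, *SYBU*, which links vesicles to kinesin, at 0.40 and *MYL2B* at 0.05. Of the receptor, hormone and other transcripts 1 of 6 was higher. *KLHL38* stood at 1.02 to 2.98 CPM in UV and 1.66 to 5.95 CPM in blue, a log2 difference of −0.91 (95% interval −1.87 to 0.05). Its controls had 0.351 and 0.210 CPM, and the difference from the controls was called in blue (3.74, adjusted p-value of 0.0370) but not in UV (2.84, adjusted p-value of 0.109) by edgeR's quasi-likelihood test, which does not show that UV and blue differ. *RAVER1*, a splicing co-factor, was at 0.41, the adrenergic receptor *ADRB2B* at −0.59, and *CREB5* and *ENOX1* at −0.03 and 0.00. The controls of *RAVER1* had 11.3 and 15.6 CPM, against means of 4.38 CPM in UV and 3.27 CPM in blue. Against them it was called lower by edgeR in both, at −1.61 in UV and −2.05 in blue.

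The transcripts that the panel lists as housekeepers had small differences. Of these, 9 of 10 were tested, their log2 differences ran from −0.08 to 0.24, and all 9 intervals lay within 2-fold. *INTS9*, a subunit of the Integrator complex, stood at 25.5 to 28.4 CPM in UV and 25.0 to 29.5 CPM in blue (0.00, SE 0.09). ENSXMAT00000020266, although listed among the housekeepers, had 5.62 to 20.9 CPM in UV and 8.16 to 15.8 CPM in blue against 1.67 and 2.48 CPM in the controls. Of the 25 named coding-sequence rows 17 were tested, 11 with higher values in UV. Beside the 3 already described, *STAT4*, a transcription factor of cytokine signalling, was at 0.31, *GPX6*, a glutathione peroxidase, at 0.43, *AP1M1* at 0.83 (SE 0.53) and *CYP1A1*, a cytochrome P450 that oxidizes aromatic compounds, at −0.54 (SE 0.93) with 0.00 to 2.49 CPM. *HSP90AB1* was between 1138 and 1316 CPM in all UV fish and between 1161 and 1292 CPM in 3 blue fish, while the first fish of 450–500 nm had 496 CPM. The 11 named rows with too few reads to be tested were *NOS2*, *TSHB*, *PCP4*, *ANXA5_2of2*, *FAM19A3*, *FGFR4*, *IGF1*, *KISS1*, *MAPK11*, *PMEPA1* and a second row of *PRKCB*.

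**Figure D3:**
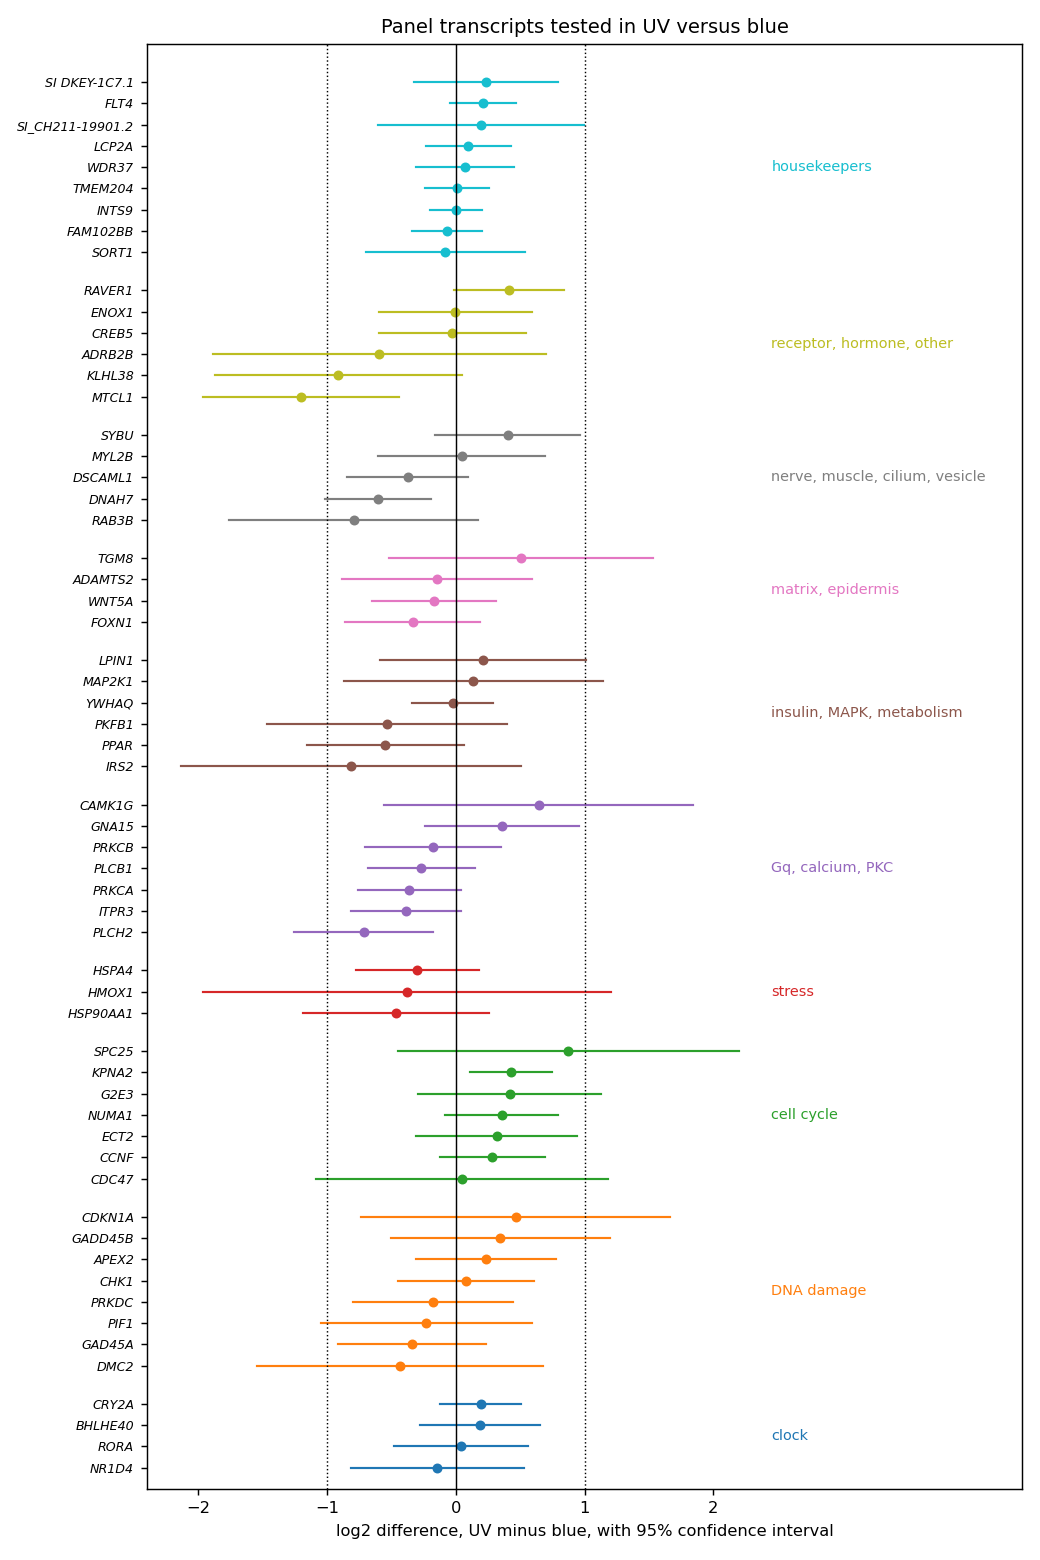
Log2 difference of UV minus blue with its 95% confidence interval (horizontal axis) for panel transcripts tested, grouped and coloured by role; dotted lines mark a 2-fold difference. All 7 cell cycle points lie above 0, the intervals of the 9 housekeepers stay within 2-fold, and intervals such as that of *IRS2* (−2.13 to 0.51) are wide.

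Of the transcripts without a name, those with the lowest p-values in each direction were ENSXMAT00000016735 and ENSXMAT00000017986, higher in UV, and ENSXMAT00000002684 and ENSXMAT00000019244, lower in UV. ENSXMAT00000016735 had 2.60, 1.65, 1.02 and 0.900 CPM in the UV fish and 0.416, 0.429, 0.285 and 0.207 CPM in the blue fish, a log2 difference of 2.19 (SE 0.43), with controls of 0.877 and 1.13 CPM. ENSXMAT00000002684 had 26.0, 26.3, 34.8 and 26.0 CPM in the UV fish and 45.9, 40.9, 48.1 and 48.2 CPM in the blue fish, a log2 difference of −0.70 (SE 0.12), with controls of 48.0 and 58.0 CPM. In both the groups did not overlap, and in the second the controls lay with the blue fish or above them. The other pair was at 0.59 and −0.71. ENSXMAT00000016735 was among the 5 transcripts called by DESeq2 and the 2 called by edgeR's exact test. The other transcript called by both tools was ENSXMAT00000017269, lower in UV, and DESeq2 alone also called ENSXMAT00000007012, ENSXMAT00000011907 and ENSXMAT00000014595, all lower in UV. These IDs were picked for naming after their values were seen.

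UV and blue were also divided into single wavebands. Of the 9 comparisons among UV and blue libraries, the 2 UV wavebands against each other had the most transcripts at an unadjusted p-value under 0.05. UV against blue was fitted as 2 groups, so differences between wavebands counted as spread there. In the fit with a mean per waveband, used for pairs of single wavebands, UV against blue had 1086 such transcripts. By edgeR's quasi-likelihood test 2 transcripts were called between 300–350 nm and 350–400 nm, both higher at 300–350 nm (0.0125% of 15991), and 1660 (10.4%) had an unadjusted p-value under 0.05. Between the 2 blue wavebands 0 were called by this test and 3 by DESeq2, and 490 (3.06%) had an unadjusted p-value under 0.05. Against blue as a whole, 350–400 nm had 0 called and 1130 (6.95%), and 300–350 nm had 0 called and 1454 (8.91%) at an unadjusted p-value under 0.05, while DESeq2 called 18 and 56. In the 4 single pairs of a UV with a blue waveband the number called by the quasi-likelihood test was 1 (0.00625%) in 300–350 nm against 400–450 nm, 0 in 300–350 nm against 450–500 nm, 0 in 350–400 nm against 400–450 nm and 2 in 350–400 nm against 450–500 nm, and DESeq2 called 33, 48, 6 and 56 in that order. The share with an unadjusted p-value under 0.05 was 6.62%, 8.44%, 4.6% and 7.81% in that order. These shares depend on single fish: the 1660 transcripts became 938 without the first fish of 300–350 nm and 1097 without the first of 350–400 nm, and the 490 became 1465 without the first fish of 450–500 nm. Leaving that fish out also brought 68 calls between the blue wavebands, 55 in 300–350 nm and 72 in 350–400 nm against 450–500 nm, all with higher values in the remaining fish of 450–500 nm, the one that stood apart. Against blue, the 1454 of 300–350 nm became 733 without its first fish, and the 1130 of 350–400 nm became 685 without the first fish of 450–500 nm and 688 without its own second fish. The doses of the 2 UV wavebands differ, so their wavelength and their dose cannot be told apart here.

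**Figure D4:**
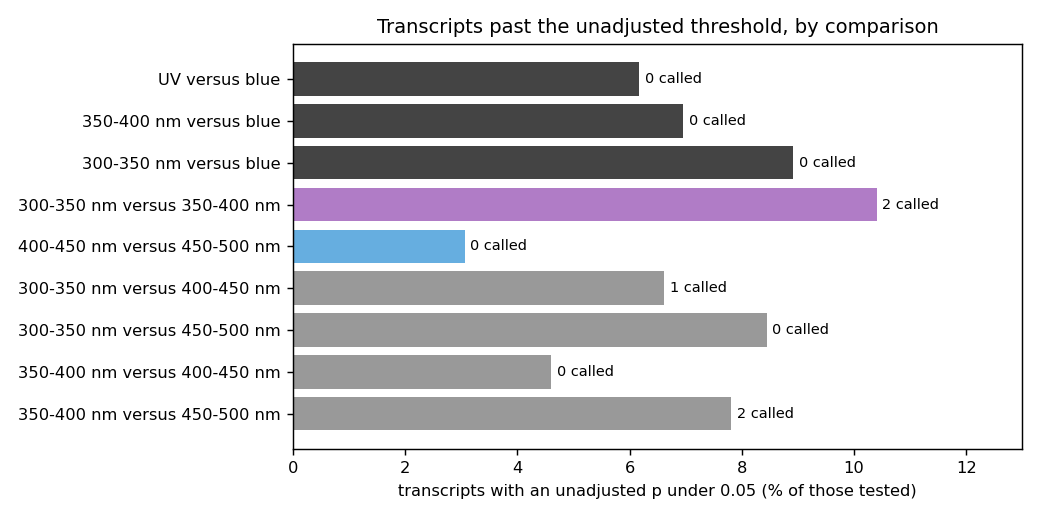
Share of transcripts with an unadjusted p-value under 0.05 (horizontal axis, % of those tested) in the 9 comparisons among UV and blue wavebands, with the number called beside each bar. The 2 UV wavebands against each other had the longest bar (10.4%) and the 2 blue wavebands the shortest (3.06%), and UV against blue lay between them (6.17%). UV against blue was fitted as 2 groups and pairs of single wavebands with a mean per waveband, so these bars differ in what counts as spread.

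In edgeR's quasi-likelihood test of all 8 libraries, the calls between single wavebands came from 2 transcripts without a name and with neighbouring identifiers, ENSXMAT00000006293 and ENSXMAT00000006296. ENSXMAT00000006293 had 37.8 and 30.9 CPM at 300–350 nm, 0.340 and 0.346 CPM at 350–400 nm, 8.73 and 5.21 CPM at 400–450 nm and 21.9 and 13.8 CPM at 450–500 nm. ENSXMAT00000006296 had 16.1 and 12.1 CPM, 0.792 and 0.692 CPM, 1.60 and 1.90 CPM, and 9.06 and 10.7 CPM in the same wavebands. In both, the 2 UV wavebands were at the opposite ends of the range and the blue wavebands between them, and the 2 fish of each waveband lay close together. The log2 difference between 300–350 nm and 350–400 nm was 6.60 (SE 0.43) and 4.21 (SE 0.27), each with an adjusted p-value of 0.00408 in edgeR's quasi-likelihood test. Between 350–400 nm and 450–500 nm it was −5.68 and −3.72, each with an adjusted p-value of 0.0125, and ENSXMAT00000006296 was also called between 300–350 nm and 400–450 nm (2.99, adjusted p-value of 0.0381), again by edgeR's quasi-likelihood test.

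Fish without any exposure and fish of longer wavebands also differed at these 2 transcripts. The 2 controls had 23.2 and 8.82 CPM of ENSXMAT00000006293, and the 2 fish of 550–600 nm had 166 and 6.28 CPM. Fish of 1 group thus lay far apart. Over the 28 distinct libraries of the series the transcript ran from 0.335 to 228 CPM and ENSXMAT00000006296 from 0.345 to 66.7 CPM. The 2 transcripts followed each other over these libraries (Pearson r of 0.961 on the log2 scale, a description over libraries of many exposures). Whether they share reads was not tested. The 2 calls between the UV wavebands became 0 when either fish of 350–400 nm was left out, as did the 2 between 350–400 nm and 450–500 nm, which became 1 without the second fish of 450–500 nm. The call between 300–350 nm and 400–450 nm became 0 without any 1 of the 4 fish.

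**Figure D5:**
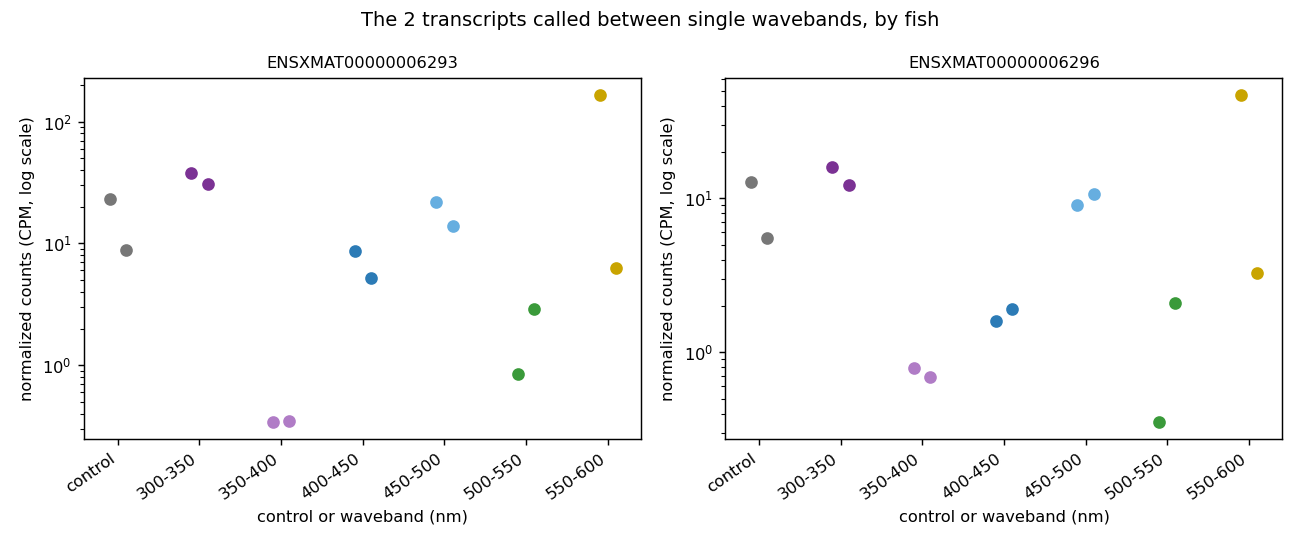
Normalized counts (CPM, log axis) of ENSXMAT00000006293 and ENSXMAT00000006296 in the 2 controls and the 2 fish of each 50 nm waveband; each point is 1 fish. Both fish of 350–400 nm lie at or under 0.792 CPM and both of 300–350 nm above 12 CPM, while the 2 fish of 550–600 nm lie far apart (166 and 6.28 CPM for the first transcript).

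The 4 single pairs can be set side by side in 2 ways in which UV is compared with blue in separate fish. For 300–350 nm against 400–450 nm and 350–400 nm against 450–500 nm, 512 of the 1058 transcripts with an unadjusted p-value under 0.05 in the first had the same sign in the second (48.4%), and 582 of the 1249 of the second had the same sign in the first (46.6%). For 300–350 nm against 450–500 nm and 350–400 nm against 400–450 nm, 738 of 1350 (54.7%) and 424 of 736 (57.6%) had the same sign. Over all transcripts the share was 49.8% and 49.4%. Of the transcripts with an unadjusted p-value under 0.05 in both members of a set, 60 of 179 had the same sign in the first and 70 of 108 in the second.

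The fish without exposure give a common reference for both kinds of light. The paper's 2 descriptions of its controls differ on whether these fish were handled. The labels give the controls no times in the dark, whereas exposed fish had 14 h before and 6 h after the light. Exposure, handling and the time of sampling therefore cannot be told apart in a difference from the controls. The paper removed genes that differed between its sham-treated and unexposed fish, and this step was not taken here. Tested with edgeR against the 2 controls, UV had 150 transcripts called higher (0.897%) and 265 lower (1.58%), and blue 194 higher (1.16%) and 439 lower (2.63%) of 16722. These comparisons were added after the UV and blue values were seen, and they share the 2 controls. Leaving out control 2 brought the calls down to 27 and 78, and leaving out control 1 to 241 and 265. Of the 77 named transcripts 11 were called in UV and 12 in blue. All of them kept their sign without either control, but only *CRY2A* remained called in UV without control 2, and *CRY2A* and *DNAH7* in blue. The size of the departure from the controls was much the same for 3 of the wavebands: a median of 0.30 on the log2 scale at 350–400 nm, 0.29 at 400–450 nm and 0.30 at 450–500 nm, against 0.25 at 300–350 nm, which had the lowest dose. At least a 2-fold departure was seen at 1218, 989, 1074 and 625 transcripts in that order. For 300–350 nm the wavelength and the dose cannot be told apart. The 2 fish of this waveband also differed 2-fold from each other at the fewest transcripts of the 4 wavebands (559), and the part of this spread was not tested. Control skin was nearer to 300–350 nm than to the blue waveband for 57.4% (400–450 nm) and 57.8% (450–500 nm) of the transcripts, and nearer to 350–400 nm for 47.0% and 48.0%.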

How the data were processed

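The authors trimmed and filtered the reads, aligned them to Ensembl transcripts with GSNAP and deposited raw counts per transcript, not normalized, from a quantifier that the methods call xEpress. Tool versions and the settings for multi-mapping reads are not given in the sources used here, so near-identical transcripts are uncertain. Of the 32 columns 28 were distinct, and 18 entered no comparison here. The 8 libraries were fitted with edgeR 4.0.16 in R 4.3.3 (filterByExpr, TMM, quasi-likelihood test, Benjamini-Hochberg adjustment over all transcripts tested), with UV or blue as the only factor. Single wavebands were compared in a fit with a mean per waveband, and controls in a fit of the 14 libraries of the 50 nm experiment, whose TMM factors also scaled the CPM. A standard error is the log2 difference divided by the square root of F, and a call needs an adjusted p-value under 0.05 and a log2 difference of at least 1 in size. Log2 values of single fish used a prior count of 2. Full values are given for named transcripts that were called or, as none was, for those with an unadjusted p-value under 0.05 or groups that do not overlap, and for the 2 unnamed transcripts of lowest p in each direction. Names came from the study's panel, whose identifiers were read from page images. The members followed from the waveband in the labels. The choice of this comparison and of the lists was made with earlier results of these data known. DESeq2 1.42.0 and limma 3.58.1 were alternatives. The edgeR tests were also run on simulated data, which held no differences between the wavebands of a group, so that run does not bear on such spread. Promoters and sham-treated fish were not analysed here. The values of 1 tested panel transcript are not reported here, though the counts include it.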

Additional observations from a re-analysis of the deposited data

Results flagged for a closer look

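*MTCL1* had 1 fish far from the others of its group. Among the 4 blue fish the first fish of 450–500 nm had 2.05 CPM and the other 3 had 1.07 to 1.17 CPM, a gap of 0.901 of the whole range against a critical value of 0.829. Of 16 groups of 4 fish examined (the 7 named transcripts given in full and the library totals, in UV and in blue) it was the only one past that value, and chance picks out about 1 in 20 groups. Leaving out single fish or wavebands, and the other alternatives, moved the log2 difference of *MTCL1* between −1.63 and −0.86.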

How the results depend on the processing

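UV against blue had 0 calls with RLE size factors, no filter on low counts, limma voom, a mean per waveband, all 14 libraries in 1 fit, no minimum fold, the replicate block, each waveband left out and each fish left out (0 to 0), but 5 with DESeq2 and 2 with edgeR's exact test. DESeq2 also called 18 in 350–400 nm against blue, 56 in 300–350 nm against blue, 78 in 300–350 nm against 350–400 nm, 3 in 400–450 nm against 450–500 nm, 33 in 300–350 nm against 400–450 nm, 48 in 300–350 nm against 450–500 nm, 6 in 350–400 nm against 400–450 nm and 56 in 350–400 nm against 450–500 nm. The cause of this was not tested. Without single fish the calls ran from 0 to 2 in 300–350 nm against 350–400 nm, from 0 to 0 in 300–350 nm against 400–450 nm and in 350–400 nm against 400–450 nm, from 0 to 68 between the blue wavebands, from 0 to 55 in 300–350 nm against 450–500 nm and from 0 to 72 in 350–400 nm against 450–500 nm. The counts of 68, 55 and 72 arose when fish 1 of 450–500 nm was left out and fish 2 alone stood for the waveband, assumed to vary like the other groups; without fish 2 of 450–500 nm they were 0, 0 and 1. For the added comparisons with the controls they ran from 27 to 370 in UV and from 78 to 566 in blue.

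The replicate numbers mark different animals, and the deviations of same-numbered fish had positive correlations across transcripts in all 6 pairs of wavebands (0.066 to 0.272) but passed 0.1, the value set for taking numbers as pairs, in 3 of 6, so the numbers were not taken as pairs. With the replicate block UV against blue had 0 calls and 1032 transcripts with an unadjusted p-value under 0.05, 300–350 nm against 350–400 nm had 3 calls, 300–350 nm against 400–450 nm had 0 and 350–400 nm against 400–450 nm had 1.

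Of the 77 named transcripts 40 changed sign in at least 1 of 20 alternatives and 0 were called in any. All 7 given in full kept their sign, but they were picked for low p-values in these same libraries. Their kept signs were thus largely set by that choice. With 2 fish per waveband and 15304303 to 19825171 counts per library, rare transcripts such as *MTCL1* had wide intervals.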

Other observations

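The 986 transcripts with an unadjusted p-value under 0.05 in UV against blue were also read in libraries that the comparison did not use, which was chosen after seeing the data because no transcript was called. The control mean was nearer to blue than to UV for 37.4% of them, against 43.9% of all 15991 transcripts. The 986 were not divided by UV waveband. Over all transcripts control skin was nearer to 300–350 nm, the waveband of lowest dose, than to the single blue wavebands for 57.4% and 57.8%. It was nearer to 350–400 nm than to them for 47.0% and 48.0%. The fish of 500–550 nm were nearer to blue for 60.9% (54.5% of all), and those of 550–600 nm for 52.9% (52.6% of all). Of the 986, the control mean lay between UV and blue for 337, beyond UV for 426 and beyond blue for 223.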
